A study of Mus musculus with 59 samples.

Results

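Enpp2, Fgf3, Podxl and Tek were 4 genes followed in cells sorted as early T cell progenitors. There they had more RNA with the P45 form of TCF-1 than with an empty vector. They were listed for that rise, from these libraries, so their levels with P45, with the empty vector and with the construct named HMGd are given as a description with no test. The questions followed here were which deletion constructs kept the rise and how the levels stood at the next stage, which had no group with the empty vector. The 4 genes were taken from 45706 genes counted and 15010 genes tested in primary cells.

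Primary cells were bone marrow progenitors of the strain labelled Tcf7eGFP fl/fl Cre+, in which every group therefore carried the floxed Tcf7 allele and Cre. The titles of all primary groups also name the cells TCF-1 knockout (KO) and LSK. The constructs thus went into cells labelled as lacking TCF-1, with the empty vector as the group given no TCF-1 back. The Cre driver, the age of the animals and the number of animals are not given in the sources used here. The cells received a construct and grew on OP9-DLL1, a stromal line that presents a Notch ligand, and were sorted on day 7. DN1 cells, sorted as the earliest progenitors, came with the empty vector (EV), P45, L1d, L7d or HMGd. DN2 cells, sorted as the next stage, came with P45, L1d or L7d. P45 was read as the wild-type form and L1d and L7d as forms lacking a named segment. HMGd was read as the form without the HMG box, the part of TCF-1 that binds DNA. Each group had 2 replicates, each the sum of 2 or 3 libraries. The labels do not say whether they came from different cultures or mice. A p-value here covers the spread between these replicates alone, which may be technical. A second set came from a thymic lymphoma line of mouse, scid.adh with Tcf7 knocked out, sorted 72 h after receiving EV, WT, DL1, DL2, DL6, DL7 or DHMG, with 2 libraries a group. All titles of the line carry the tag HMG-E10, whose meaning, such as a clone, is not given.

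TCF-1, the product of Tcf7, is an HMG-box transcription factor that is switched on by Notch signals when blood progenitors enter the T cell pathway. The 4 genes encode proteins that act at or outside the cell surface. Fgf3 is a secreted fibroblast growth factor and binds FGF receptors. Enpp2 encodes autotaxin, a secreted enzyme that makes lysophosphatidic acid, which signals through its own receptors and guides lymphocyte entry into lymph nodes. Tek encodes TIE2, the receptor for angiopoietins, found on endothelial cells and on blood stem cells. Podxl encodes podocalyxin, a sialomucin of the CD34 family found on podocytes, vessels and early blood cells.

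In GRCm38 with the GENCODE M21 annotation, Enpp2 (ENSMUSG00000022425) lies on the minus strand of chromosome 15 from 54838901 to 54952892. Fgf3 (ENSMUSG00000031074) lies on the plus strand of chromosome 7 from 144838083 to 144844436, and Podxl (ENSMUSG00000025608) on the minus strand of chromosome 6 from 31519488 to 31563981. Tek (ENSMUSG00000006386) lies on the plus strand of chromosome 4 from 94739289 to 94874976. Counts were summed over all exons of each gene.

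Promoter windows were at hand for 2 of the 4 genes and are shown because a TCF protein binds a short core, CTTTGA or CTTTGT, through the HMG box. The windows are the plus strand of RefSeq's GRCm38.p6, Fgf3 at chr7:144838362-144838661 and Tek at chr4:94739039-94739338. They run from 250 bases before to 50 bases after the start of the transcript. GENCODE M21 starts Fgf3 further upstream, so that its window lies inside that annotated gene. Capitals mark the core, which was searched on both strands.
Fgf3: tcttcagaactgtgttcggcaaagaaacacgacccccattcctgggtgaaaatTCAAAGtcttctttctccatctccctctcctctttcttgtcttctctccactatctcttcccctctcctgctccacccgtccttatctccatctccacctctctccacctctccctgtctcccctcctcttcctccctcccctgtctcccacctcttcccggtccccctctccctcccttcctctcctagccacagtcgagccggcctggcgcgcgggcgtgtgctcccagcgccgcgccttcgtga
Tek: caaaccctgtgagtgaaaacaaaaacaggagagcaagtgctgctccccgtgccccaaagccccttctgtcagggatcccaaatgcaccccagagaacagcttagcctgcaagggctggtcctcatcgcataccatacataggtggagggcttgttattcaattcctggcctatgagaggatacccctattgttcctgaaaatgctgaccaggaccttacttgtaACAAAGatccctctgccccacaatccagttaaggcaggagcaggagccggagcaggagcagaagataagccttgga
Each window held 1 match, TCAAAG with its first base 197 bases before the start of Fgf3 and ACAAAG with its first base 26 bases before the start of Tek. Both matches read as the core on the strand opposite to the gene. Of 32851 promoter windows of the same 300 bases, 31.2% held at least 1 core, so these matches describe the sequence and say nothing of binding.

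Of 58 libraries used, 14 came from the line, with 3.82 to 9.48 M reads in genes, and 44 from primary cells, where the summed replicates held 9.06 to 34.39 M. A further library, DN1 L1d replicate 1 library 3, ended in mid-file and was left out. Levels are counts per 1 M reads in genes (CPM), scaled between replicates by TMM. Floors cover counting error only. The intervals rest on the SE of the edgeR fit and so also cover the spread between replicates, which may be technical. Tcf7 itself stood at 3.79 ± 0.661 CPM (SD, n = 2) with EV in DN1 and at group means of 637 to 1080 CPM with the constructs. DN1 HMGd, at 878 ± 122 CPM (SD, n = 2), was above DN1 P45 at 637 ± 16.2 CPM (SD, n = 2). DN1 L1d stood at 730 ± 49.1 and DN1 L7d at 843 ± 59.1 CPM (SD, n = 2 each). In DN2, P45 stood at 719 ± 5.86, L1d at 846 ± 50.8 and L7d at 1080 ± 46.1 CPM (SD, n = 2 each). By mean, L7d thus had more Tcf7 RNA than P45 and L1d at both stages. The part of these Tcf7 differences in the members' levels was not tested. In the line, Tcf7 reads were also present with EV, at 571 and 581 CPM, against 1790 to 3240 CPM with the constructs, so that RNA of the targeted gene was still counted there.

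Markers of the sort were compared with the gates. Il2ra, which encodes CD25, ranged from 0.425 to 3.42 CPM in DN1 replicates and from 373 to 1280 CPM in DN2 replicates. Cd44 ranged from 351 to 514 CPM in DN1 and from 161 to 208 CPM in DN2. Ptprc, which encodes CD45, ranged from 651 to 774 CPM in DN1 and from 422 to 522 CPM in DN2. Kit RNA went against the c-Kit gate, which is high for DN1 and low for DN2. It ranged from 93.2 to 114 CPM in DN1 and from 261 to 308 CPM in DN2. A list of 16 granulocyte genes summed to 17500 to 41100 CPM in DN1 replicates, and 15 early T cell genes to 16.8 to 46.4 CPM. In DN2 replicates these sums were 1230 to 4980 and 78.4 to 228 CPM. At both stages these granulocyte genes thus had more RNA than these early T cell genes, and DN1 and DN2 name the sort.

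In DN1 cells all 4 genes were higher in both replicates of P45, L1d and L7d than in those of EV and HMGd. For Tek the step from HMGd to L1d was small, at 0.66 CPM between nearest replicates. Its log2 fold change of L1d over HMGd was 0.83 ± 0.39 (SE). The single libraries of Tek overlapped there, at 0.252 to 3.05 CPM with HMGd and 2.33 to 5.07 CPM with L1d. The contrast that chose them held 1120 called genes of 15010, or 7.46%, with 1.75% called higher and 5.72% lower, and nothing is read from the members' place in it. Ordered by fold among all 15010 genes, Enpp2 stood 16th, Fgf3 49th, Podxl 68th and Tek 71st.

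Fgf3, the growth factor, had 1.73 and 2.88 CPM with EV and 3.19 and 1.16 CPM with HMGd. It reached 17.4 and 20.2 CPM with P45, 14.5 CPM in each replicate with L1d, and 25.7 and 34.6 CPM with L7d. The EV and HMGd replicates overlapped each other, and all lay below every replicate of the other constructs. On the log2 scale the fold change over EV was 3.07 ± 0.3 (SE) for P45, 2.69 ± 0.33 for L1d, 3.74 ± 0.3 for L7d and 0.04 ± 0.45 for HMGd. The HMGd value was -0.95 without HMGd replicate 1 (45 reads) and 0.51 without HMGd replicate 2 (12 reads). The single libraries gave the same order, with a lowest, median and highest of 1.31, 2.38 and 3.21 CPM over 6 EV libraries and 16.4, 17.8 and 21.4 CPM over 6 P45 libraries.

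Enpp2, the autotaxin gene, was nearly silent with EV, at 5 and 3 reads (0.234 and 0.188 CPM), and with HMGd, at 6 and 4 reads (0.425 and 0.387 CPM). It had 6.26 and 5.57 CPM with P45, 7.82 and 9.22 CPM with L1d, and 8.56 and 5.24 CPM with L7d. The 3 high groups overlapped at their edges: L1d with L7d and L7d with P45. The fold over EV was 26.8 for P45, 39 for L1d, 31.4 for L7d and 1.88 for HMGd, the last with a log2 fold change of 0.91 ± 0.67 (SE). At 8 reads in all with EV, these folds rest on few reads.

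Podxl, the sialomucin gene, had 1.73 and 3.38 CPM with EV and 1.56 and 3.68 CPM with HMGd. It had 16 and 16.6 CPM with P45, 12.1 and 13 CPM with L1d, and 23.4 and 33.4 CPM with L7d. L1d lay below P45 and L7d above it in both replicates, as for Fgf3. The fold over EV was 6.58 with P45, 5.09 with L1d and 11.4 with L7d, and with HMGd the log2 fold change was 0.01 ± 0.43 (SE). That value was 0.57 without HMGd replicate 1 and -0.66 without HMGd replicate 2.

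Tek, the angiopoietin receptor gene, had 1.03 and 1.38 CPM with EV, 1.27 and 2.9 CPM with HMGd and 3.56 and 3.57 CPM with L1d. It had 5.78 and 5 CPM with L7d and 8.08 and 6.78 CPM with P45. Here both deletions lay below P45, in contrast to Enpp2, where neither did by mean. L1d held 48% and L7d 72.5% of the P45 mean of Tek, while Enpp2 stood at 144% and 117%, Fgf3 at 77.1% and 160% and Podxl at 76.7% and 174%. With HMGd, Tek stood at 28.1% of P45, against 16.2% with EV, and its log2 fold change of HMGd over EV was 0.75 ± 0.43 (SE). Without HMGd replicate 2 that value was 0.11, and without HMGd replicate 1 it was 1.28.

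**Figure D1:**
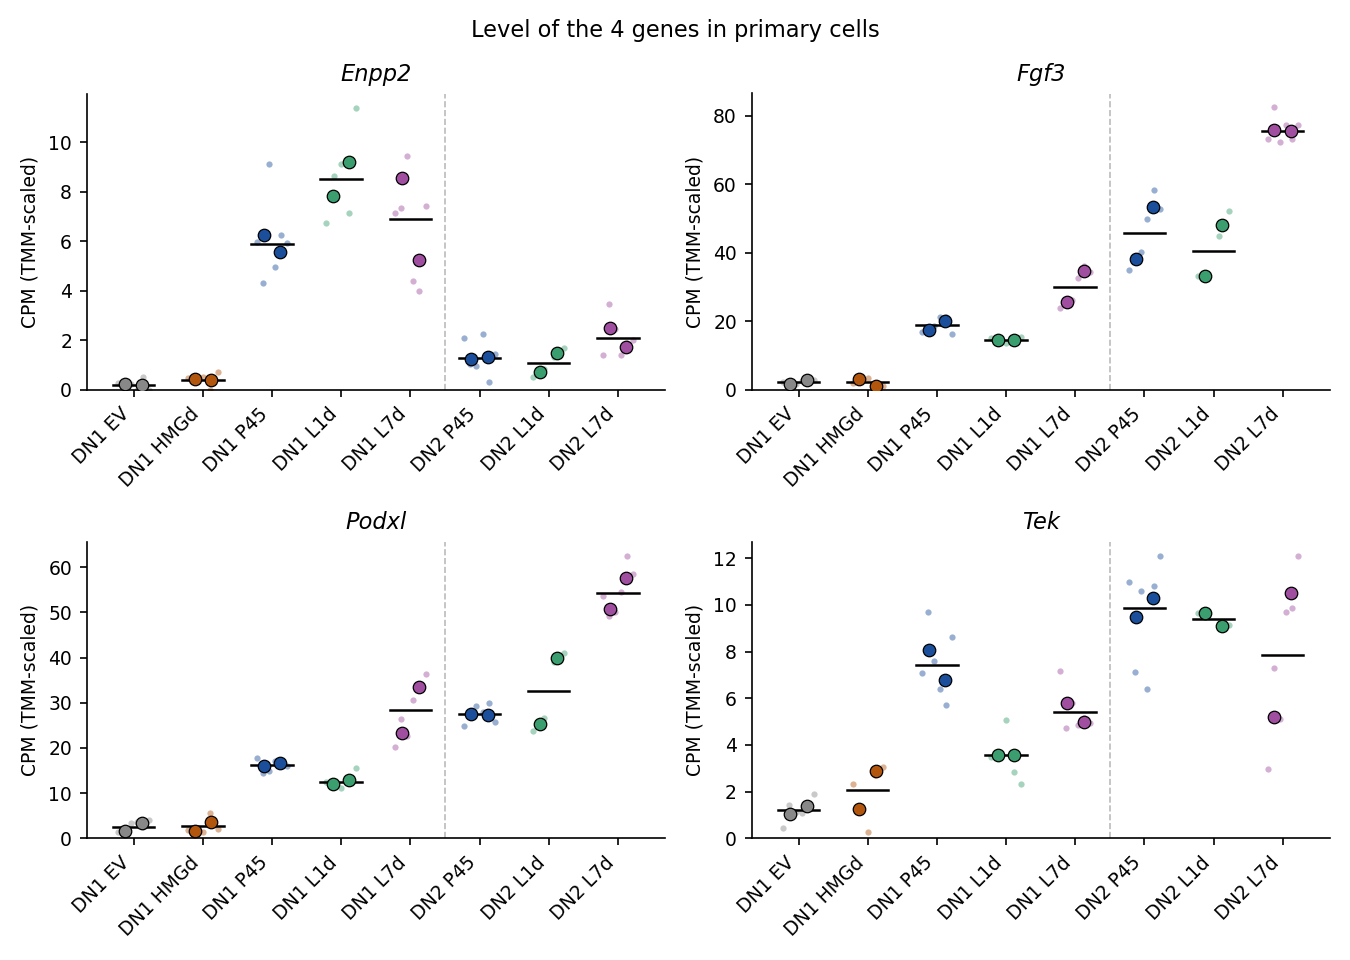
Level of each gene in the 8 primary groups, in TMM-scaled CPM on the vertical axis. Large points are the 2 replicates, small points the single libraries, the line is the mean of the replicates, and the dashed line divides DN1 from DN2. In DN1, the EV and HMGd replicates sit below those of the other constructs for every gene, but single libraries of Tek overlap between HMGd and L1d. In DN2 Enpp2 is lower while Fgf3 and Podxl are higher than in DN1.

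**Figure D2:**
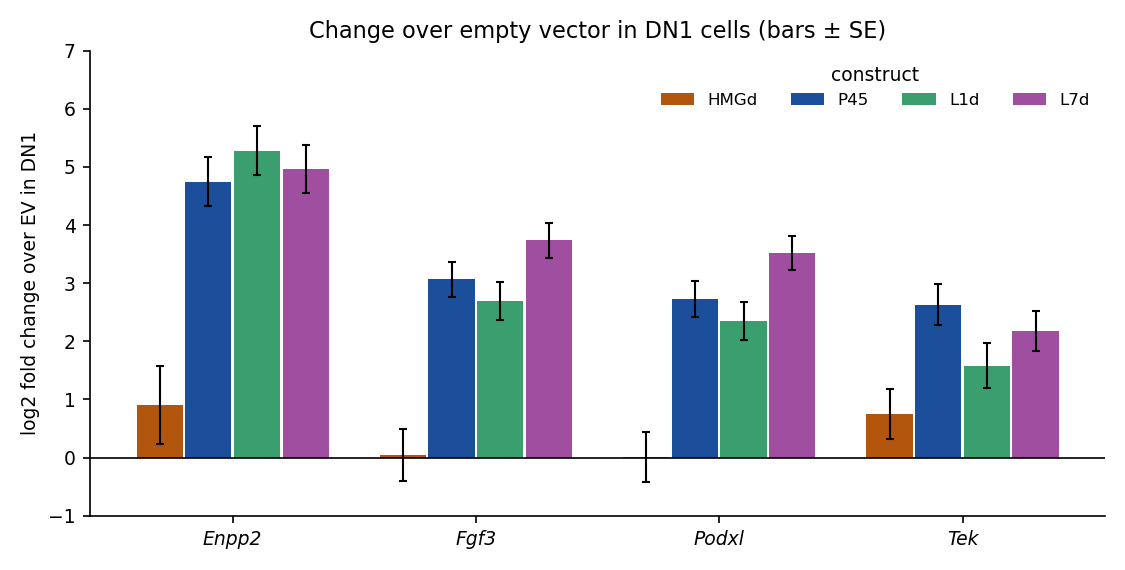
Log2 fold change over EV in DN1 with HMGd, P45, L1d and L7d, with bars for the edgeR estimate and whiskers for its SE. The HMGd bars of Fgf3 and Podxl are 0.04 and 0.01, and those of the other 3 constructs range from 1.58 to 5.28 over the 4 genes.

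Per kilobase of exon, Fgf3 had the most RNA with P45 in DN1, at a mean of 8.09 CPM per kilobase, followed by Podxl at 2.97, Tek at 1.58 and Enpp2 at 1.02. With EV the means were 0.992 CPM per kilobase for Fgf3, 0.466 for Podxl, 0.256 for Tek and 0.0365 for Enpp2.

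Marker lists of other cells and of early T cells also differed between these groups. The summed level of 15 early T cell genes in DN1 ranged over replicates from 17.3 to 20.5 CPM with EV, 16.8 to 18.7 with HMGd, 28.5 to 30.9 with L1d, 35.7 to 46.4 with L7d and 43.3 to 46.2 with P45. Like the members, this sum was lower in every replicate of EV and HMGd than in those of the other constructs. The summed level of 16 granulocyte genes in DN1 ranged over replicates from 40000 to 41100 CPM with EV, 33300 to 34600 with HMGd, 30100 to 30700 with L1d, 23600 to 25500 with L7d and 17500 to 19800 with P45. Of these 16 genes 11 were called lower with P45 than with EV and 0 higher by edgeR (adjusted p below 0.05), and at an unadjusted p below 0.05 the counts were 12 and 0 and by DESeq2 9 and 0. A summed list of 15 megakaryocyte and erythroid genes ranged from 207 to 261 CPM with EV and 203 to 311 with HMGd. It ranged from 263 to 296 CPM with P45, 307 to 346 with L1d and 313 to 433 with L7d. Of 11 of these genes tested, 1 was called higher with P45 than with EV and 1 lower by edgeR. At an unadjusted p below 0.05 the counts were 4 and 1, and by DESeq2 1 and 1. The median log2 fold change of the 11 was 1.14, against -0.01 over all genes. The 16 endothelial genes summed to 163 to 175 CPM with EV, 173 to 193 with HMGd, 178 to 187 with L1d, 177 to 210 with L7d and 172 to 186 with P45. Within that list Emcn, Cldn5 and Sox17 had 0 reads in every DN1 replicate and Cdh5 had 0.251 to 0.722 CPM. Others of the list had more RNA: Pecam1 averaged 65 CPM with EV and 77.7 with P45, Kdr 26 and 29.1, and Vwf 11.5 and 24.3. Of 11 endothelial genes tested, 0 were called higher with P45 and 1 lower, Erg. The 16 blood stem cell genes summed to 463 to 497 CPM with EV, 478 to 510 with HMGd, 504 to 548 with L1d, 508 to 543 with P45 and 590 to 602 with L7d. Of 14 tested, 2 were called higher with P45 than with EV and 0 lower by edgeR, beside 1.75% and 5.72% of all genes. At an unadjusted p below 0.05 the counts were 4 and 1, and by DESeq2 3 and 0. Stroma genes summed to 437 to 607 CPM with EV, 413 to 654 with HMGd, 429 to 800 with L1d, 363 to 470 with L7d and 285 to 414 with P45. Dcn had 0 reads in every replicate. Of 12 stroma genes tested, 1 was called higher with P45 than with EV and 0 lower by edgeR, and 0 were called by DESeq2. The part of these lists in the members' levels was not tested. In bulk samples, fewer cells of a type and less RNA per cell cannot be told apart.

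**Figure D3:**
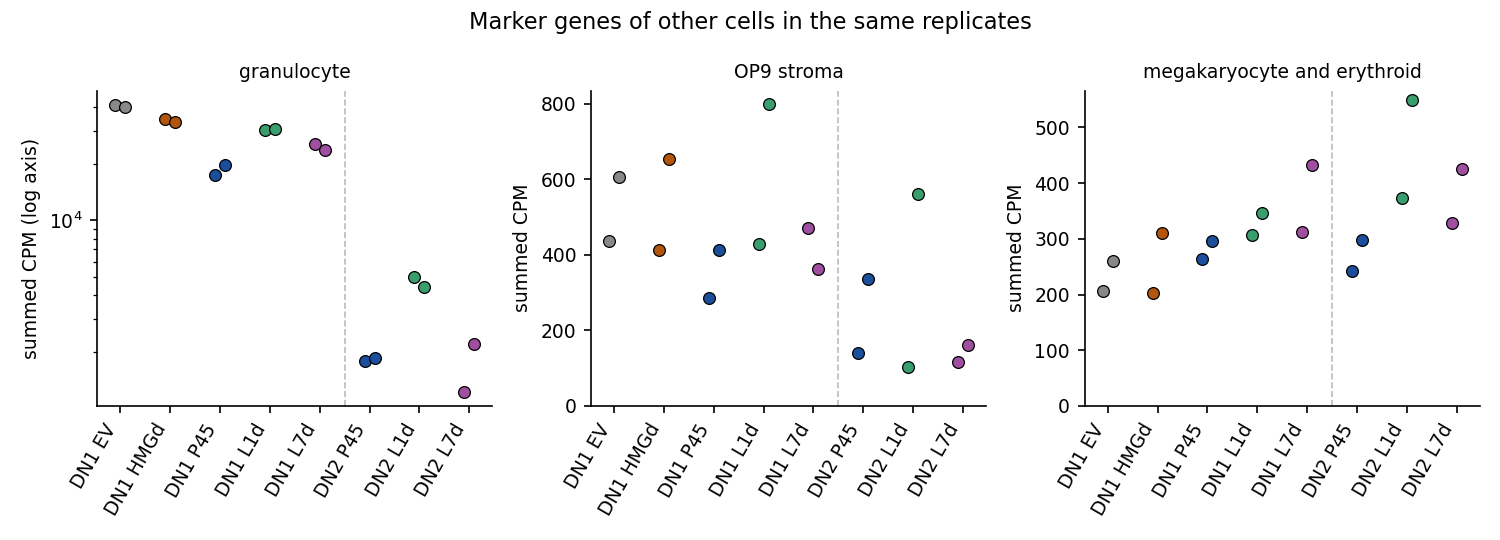
Summed level in CPM of marker genes of granulocytes (log axis), OP9 stroma and megakaryocytes with erythroid cells, for the 2 replicates of each primary group. Granulocyte RNA falls from 40000 to 41100 CPM with EV to 17500 to 19800 CPM with P45 in DN1 and is lower still in DN2.

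The contrast of L1d with L7d in DN1 used neither EV nor P45. Here 9 of 15010 genes, or 0.06%, passed an adjusted p of 0.05 in edgeR (quasi-likelihood, Benjamini-Hochberg), and 0 of the 4 members did. At an unadjusted p below 0.05 the members' count was 2, and by DESeq2 it was 0. The unadjusted calls were Podxl, 2.25-fold lower with L1d (log2 fold change -1.17 ± 0.26 SE, adjusted p = 0.171), and Fgf3, 2.07-fold lower (-1.05 ± 0.24, adjusted p = 0.187), each in 2 of 2 replicates. Both became called with no filter on low counts. Their log2 fold changes hardly moved there, at -1.18 for Podxl and -1.07 for Fgf3, while called genes rose from 9 to 219. Why the calls rose was not tested, so these calls are not read as stronger evidence. Podxl and Fgf3 were also called with each library as its own replicate. That setting counts libraries of 1 replicate as separate samples and so gives p-values that are too small. Tek differed by -0.59 on the log2 scale (95% interval -1.28 to 0.09) and Enpp2 by 0.31 (-0.25 to 0.88).

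The samples held no DN2 group with EV or HMGd. All 4 genes stood above the EV level of DN1 in every DN2 group, and there stage and construct cannot be told apart. Fgf3 had 38.3 and 53.4 CPM with P45, 33.3 and 48.1 CPM with L1d and 75.9 and 75.5 CPM with L7d. Podxl had 27.4 and 27.3 CPM with P45, 25.4 and 39.9 CPM with L1d and 50.7 and 57.7 CPM with L7d. For both genes L7d lay above every replicate of the other constructs, and P45 and L1d overlapped.

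Tek had 9.48 and 10.3 CPM with P45, 9.65 and 9.1 CPM with L1d and 5.18 and 10.5 CPM with L7d, so its 3 DN2 groups overlapped. Enpp2 had 1.26 and 1.31 CPM with P45, 0.717 and 1.48 CPM with L1d and 2.48 and 1.74 CPM with L7d, where L7d alone did not overlap the others.

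By test, Fgf3 was 1.86-fold lower with L1d than with L7d in DN2 (log2 fold change -0.89 ± 0.21 SE, edgeR adjusted p = 0.0228), lower in 2 of 2 replicates. This was 1 of the 4 members, against 5.82% of 15010 genes called in that comparison, 4.73% higher and 1.09% lower with L1d. The call was lost by DESeq2 (adjusted p = 0.0808), without DN2 L1d replicate 1 (0.0924) and without DN2 L7d replicate 1 (0.118). Podxl was 1.66-fold lower with L1d, with an edgeR adjusted p of 0.0862. Its log2 fold change was -0.73, and -1.09 without DN2 L1d replicate 2. Between L1d and L7d in DN2, 11 of 16 granulocyte genes were also called higher with L1d and 0 lower. Of 13 early T cell genes, 5 were called lower with L1d and 0 higher. The early T cell list summed to 78.4 to 87.9 CPM with L1d and 110 to 227 CPM with L7d. The part of these lists in the values of Fgf3 and Podxl was not tested.

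Against P45 in DN2, L7d gave 0 member calls by edgeR, where 0.293% of genes were called, with 2 at an unadjusted p below 0.05 and 0 by DESeq2. Those 2 were Podxl, with a log2 fold change of 0.99 (95% interval 0.5 to 1.48, adjusted p = 0.104), and Fgf3, at 0.72 (0.27 to 1.17, adjusted p = 0.233). Both were called under some other settings, among them no filter on low counts. With no filter their log2 fold changes were 0.96 and 0.7, close to those reported, while called genes rose from 44 to 447. L1d against P45 also gave 0 member calls, with 0 unadjusted and 0 by DESeq2, in a comparison that called 10.9% of all genes, 8.05% higher and 2.8% lower. The 4 intervals there ran from -1.01 at the lowest to 0.76 at the highest on the log2 scale. That comparison moved other lists: 14 of 16 granulocyte genes were higher with L1d in DN2, and 7 of 13 early T cell genes were lower. Higher with L1d were also 7 of 14 blood stem cell genes and 5 of 11 megakaryocyte and erythroid genes, with 0 lower in each. Of 9 angiopoietin and Tie genes 3 were higher and 3 lower. Of 7 podocalyxin relatives and partners 1 was higher and 2 lower. The part of these lists in the members' values was not tested.

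The stage comparison set DN2 against DN1 under 1 construct and split the members. With L1d, Enpp2 was 7.73-fold lower in DN2 (log2 fold change -2.95 ± 0.33 SE, edgeR adjusted p = 4.46e-06). Fgf3 was 2.81-fold higher (adjusted p = 0.000169), Podxl 2.59-fold higher (0.000603) and Tek 2.62-fold higher (0.00275). All 4 members were thus called, in a comparison that called 39.8% of genes, 20.1% higher and 19.7% lower.

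With L7d, which shares no sample with the L1d comparison, Enpp2 was 3.31-fold lower in DN2 (log2 fold change -1.73, 95% interval -2.34 to -1.12, adjusted p = 0.000174). Fgf3 was 2.52-fold higher (adjusted p = 0.000129) and Podxl 1.91-fold higher (0.004). Tek was not called, at a log2 difference of 0.56 (95% interval -0.04 to 1.16, adjusted p = 0.128). The count was 3 of 4 members, in a comparison that called 41.3% of genes, 19.5% higher and 21.8% lower. Podxl lost its call without DN1 L7d replicate 1 (adjusted p = 0.0523). Tek rested on a single DN2 replicate, since its log2 difference was 1 without DN2 L7d replicate 1 (adjusted p = 0.0061) and -0.06 without DN2 L7d replicate 2 (0.904).

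The difference between the 2 stage effects was tested as an interaction, which called 0.26% of genes and 0 members by edgeR, with 1 at an unadjusted p below 0.05 and 0 by DESeq2. That 1 was Enpp2, whose fall was larger with L1d by 1.22 on the log2 scale (log2 difference -1.22, 95% interval -2.17 to -0.28, adjusted p = 0.345). With P45, given as a description since its DN1 arm chose the genes, Enpp2 was 4.58-fold lower in DN2, Fgf3 2.43-fold higher, Podxl 1.68-fold higher and Tek 1.33-fold higher. All 16 granulocyte genes were lower in DN2 with L1d and with L7d, where their sum over replicates was 1230 to 4980 CPM in the DN2 groups. Of 12 stroma genes tested, 0 were lower and 1 higher in DN2 with L1d, and 9 were lower and 1 higher with L7d. The stroma sum ranged in DN2 from 104 to 561 CPM with L1d and from 116 to 160 CPM with L7d, and in DN1 from 429 to 800 and from 363 to 470 CPM. The 16 blood stem cell genes summed in DN1 to 504 to 548 CPM with L1d and 590 to 602 CPM with L7d, and in DN2 to 1030 to 1060 and 973 to 1010 CPM. Of 14 tested, 6 were higher and 0 lower in DN2 with L1d, and 6 were higher and 3 lower with L7d. Early T cell genes were higher for 7 of 13 with L1d and 10 of 13 with L7d, and 1 was lower with each. The part of these lists in the stage differences was not tested.

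**Figure D4:**
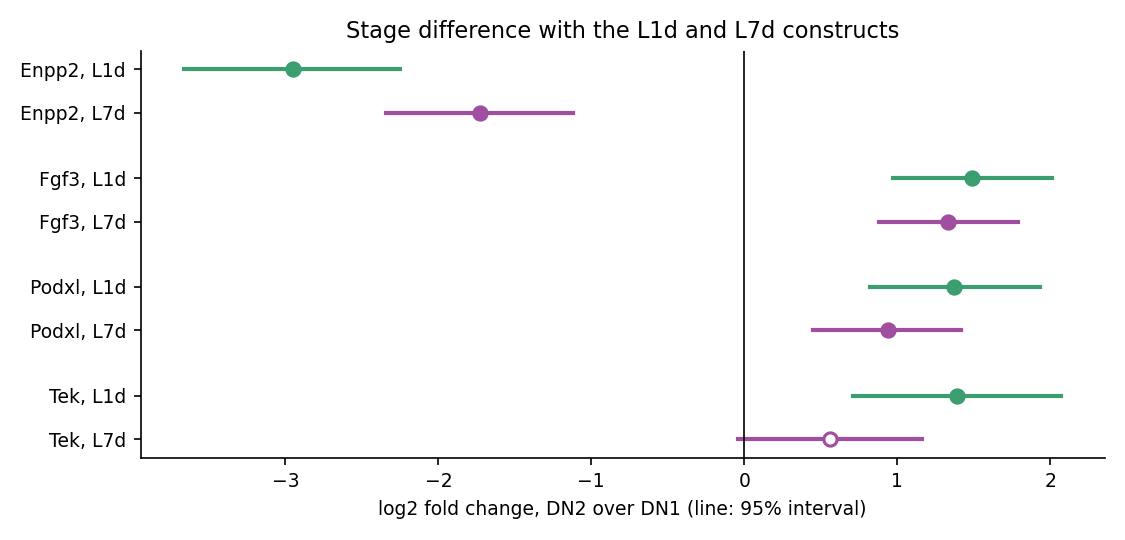
Log2 fold change of DN2 over DN1 with L1d and L7d for each gene, with the 95% interval as a line. Filled points passed an adjusted p of 0.05 and the open point, Tek with L7d, did not. Enpp2 is on the lower side with both constructs and Fgf3 and Podxl on the higher side.

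By level, the order of groups was therefore unlike for Enpp2. Its 3 highest groups were DN1 L1d, DN1 L7d and DN1 P45, which overlapped as neighbours, and DN1 P45 lay 3.09 CPM above DN2 L7d between nearest replicates. Fgf3 and Podxl were highest in DN2 L7d, above the next group by 22.1 and 10.8 CPM between nearest replicates. The neighbours of Fgf3 from DN2 P45 through DN2 L1d to DN1 L7d overlapped. Podxl did so from DN2 L1d through DN1 L7d to DN2 P45. For Tek the top 4 groups, DN2 P45, DN2 L1d, DN2 L7d and DN1 P45, each overlapped the next. In all 4 genes EV and HMGd took the last places, and they overlapped each other in 3. In Enpp2 they did not, with 0.153 CPM between them.

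In the scid.adh line the members were hardly detected in any of the 7 groups, and all 4 were removed by the filter on low counts, so no test was made. Over 14 libraries Fgf3 had 0 reads, a level below the floor of 0.0348 CPM that 3 reads over all libraries would give. Enpp2 had 4 reads, in EV and DL1, and Podxl had 10 reads in 6 libraries. Tek had 12 reads in 5 libraries, of which 3 lay in WT, 1 in EV, 3 in DHMG and 5 in DL1. No library of the line had more than 3 reads of any member. The 2 WT libraries, with 8.23 and 5.89 M reads in genes, held 0 reads of Fgf3, 0 of Enpp2, 1 of Podxl and 3 of Tek, so levels like those of primary cells with P45 were not seen in the line.

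Across the 16 primary replicates Fgf3, Podxl and Tek had like profiles and Enpp2 stood apart. Pearson's r of log2 CPM was 0.96 between Fgf3 and Podxl, 0.9 between Podxl and Tek and 0.86 between Fgf3 and Tek, against 0.47 to 0.57 for Enpp2 with the others. These are descriptions over replicates that share construct and stage within a group and differ in depth, and the genes were picked on some of them.

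**Figure D5:**
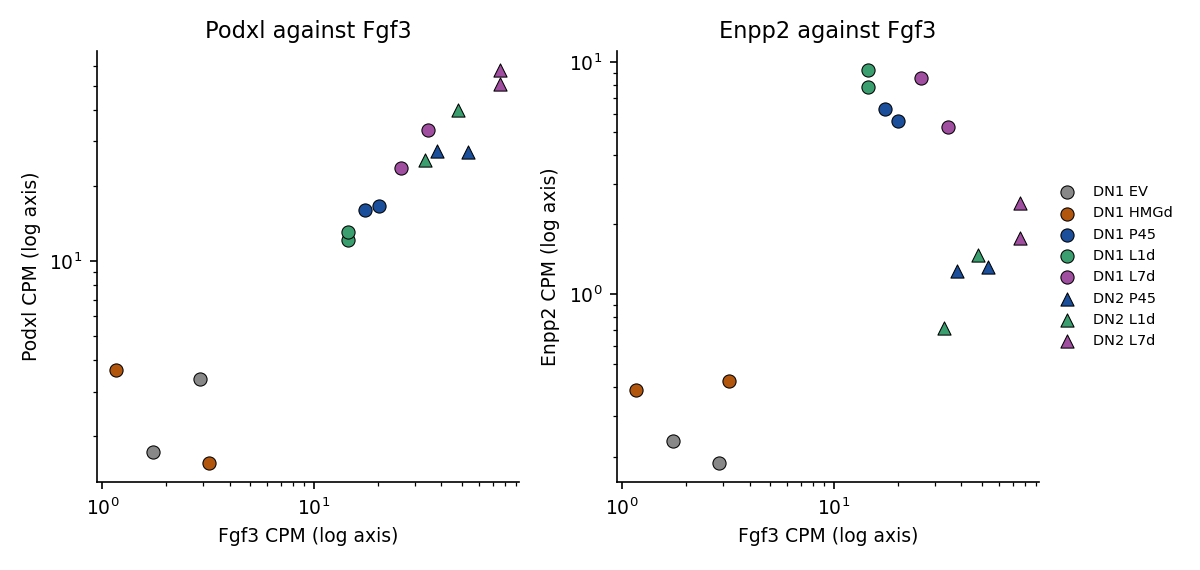
CPM of Podxl (left) and Enpp2 (right) against Fgf3 on log axes, 1 point per replicate, with circles for DN1 and triangles for DN2. Podxl follows Fgf3 (r = 0.96), while the DN2 points of Enpp2 lie below its DN1 points at higher Fgf3 (r = 0.54).

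By the same measure over 15010 genes, the profile nearest to Enpp2 was that of Cep126 (r = 0.925), followed by Pfkfb2 (0.903), a gene of fructose bisphosphate metabolism, and Inafm2 (0.878). Cep126 averaged 0.625 CPM with EV, 0.671 with HMGd, 5.28 with P45, 3.92 with L1d and 3.93 with L7d in DN1, and 1.2 to 1.74 in DN2. Only Cep126 and Pfkfb2 passed an r of 0.9 with Enpp2, while 46 genes did with Fgf3, 48 with Podxl and 9 with Tek.

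Nearest to Fgf3 were Ubash3a (r = 0.979), a regulator of T cell receptor signalling, Acss2 (0.976), which makes acetyl-CoA, and Podxl. Nearest to Podxl were F2r (0.965), the thrombin receptor gene, Fgf3 and Gm15915 (0.955). Tek was most like Six4 (0.927), Sestd1 (0.922) and Axin2 (0.921), a feedback gene of Wnt signalling. Axin2 averaged 0.469 CPM with EV and 0.516 with HMGd, against 2.71 with P45, 2.01 with L1d and 2.21 with L7d in DN1, and 6.08 to 8.21 in DN2. These genes were chosen for likeness over the same replicates, so no test is given for them here. Axin2 returns below with tests as part of the Wnt list. Those tests use the replicates over which it was found like Tek.

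The members' neighbours on the chromosome gave no call for P45 over EV in DN1. The nearest 2 tested genes on each side of each member made 16 genes, of which 0 were called by edgeR, 0 passed an unadjusted p of 0.05 and 0 were called by DESeq2, against 7.46% of all genes. Mkln1, 2.7 kb from Podxl, had 67.3 CPM with EV and 73.4 CPM with P45, a log2 fold change of 0.13 ± 0.08 (SE, adjusted p = 0.432). Taf2, 62.2 kb from Enpp2, had 62.6 and 62.2 CPM. Ccnd1, the cyclin D1 gene 85.5 kb from Fgf3, had 15.4 and 14.3 CPM, and Ift74, 46.1 kb from Tek, had 5.4 and 5.22 CPM. Of the 16 neighbours 4 were below 1 CPM with both EV and P45, which limits what could be seen of those. Between stages, where 39.8% and 41.3% of all genes were called, some neighbours were called in either direction. Near Fgf3, Ccnd1 was 2.83-fold higher in DN2 with L1d and 1.8-fold higher with L7d, and LTO1 was 1.45-fold and 1.29-fold lower. Ccn3, 84.9 kb from Enpp2, was 12.1-fold higher in DN2 with L7d and was not called with L1d.

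Other genes of the members' pathways were read from lists, beside 1.75% of all genes called higher and 5.72% called lower for P45 over EV. For P45 over EV in DN1, 0 of 13 other genes of lysophosphatidic acid synthesis, breakdown and reception were called by edgeR or DESeq2, with 2 at an unadjusted p below 0.05. The list's median log2 fold change was 0.05, against -0.01 over all genes. The receptor genes Lpar6, Lpar2 and Lpar5 had 10.7, 4.54 and 4.35 CPM with P45, against 11.1, 4.72 and 3.16 with EV.

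Of 14 FGF genes other than Fgf3, 0 were called higher and 1 lower, Dusp6, a phosphatase gene that dampens ERK signalling (log2 fold change -0.29 ± 0.07, edgeR adjusted p = 0.02), a share of the list near that of all genes, beside a median of 0.04. At an unadjusted p below 0.05 the counts were 1 and 1, and by DESeq2 0 and 1. Fgfr1, a receptor gene, had 2.56 CPM with P45 and 3.74 with EV. Of 9 angiopoietin and Tie genes, 0 were called by edgeR or DESeq2, with 1 at an unadjusted p below 0.05, and the median was 0.09. Angpt1, the main activating ligand of TIE2, had 25.9 CPM with P45 and 18.4 CPM with EV (adjusted p = 0.318). Of 7 podocalyxin relatives and partners, 0 were higher and 3 lower, beside a median of -0.15. The 3 were Ezr (-0.44, adjusted p = 0.0039), Slc9a3r1 (-0.26, 0.0251) and Slc9a3r2 (-1.1, 0.0206), which encode ezrin and its scaffold partners. DESeq2 gave the same counts of 0 and 3.

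Among 10 Wnt and TCF feedback genes, Axin2 was the 1 called higher with P45, at a log2 fold change of 2.55 ± 0.28 (adjusted p = 3.85e-05), and Cd44 the 1 called lower (-0.46 ± 0.06, adjusted p = 0.000168). At an unadjusted p below 0.05 the counts were 5 higher and 2 lower, and by DESeq2 1 and 1, and the median of the list was 0.26. The other unadjusted lower gene was Lef1, a TCF family member named after its values were seen, with 1.5 and 2.26 CPM with EV and 0.144 and 0.151 CPM with P45 (log2 fold change -3.59 ± 1.11, edgeR adjusted p = 0.0672).

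Between stages more of these genes moved. With L1d, 6 of 14 FGF genes were higher and 3 lower in DN2, and with L7d 7 were higher and 3 lower, with medians of 0.65 and 0.72 against 0.02 and 0 over all genes. Etv5, a transcription factor gene downstream of ERK, was 2.25-fold higher with L1d (adjusted p = 6.08e-06) and 2.62-fold higher with L7d (3.22e-07). Spred1, an inhibitor of that pathway, was 2.04-fold and 1.95-fold higher (1.75e-07 and 1.56e-07), while Dusp6 was 2.03-fold lower with each (5.68e-08 and 3.59e-08). Spry4, a gene of this list with few reads in DN1, moved further with L7d. It had 0.16 and 0.133 CPM in DN1 and 2.76 and 2.02 CPM in DN2 with L7d. With L1d it had 0.23 and 0.0559 CPM in DN1 and 0.13 and 0.677 CPM in DN2.

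Angpt1 was 3.45-fold higher in DN2 with L1d (adjusted p = 3.63e-05) and 2.6-fold higher with L7d (0.000198), and of the 9 genes in its list 3 were higher and 1 lower with either construct. Cd34, the podocalyxin relative on progenitors, was 3.46-fold and 2.8-fold higher in DN2 (8.99e-08 and 2.65e-07), the 1 of 7 called higher, beside 4 called lower with L1d and 3 with L7d. In the lysophosphatidic acid list, where Enpp2 itself is not counted, Lpar2 was 1.89-fold and 1.74-fold higher (0.0117 and 0.0121), the 1 of 13 called higher. There 1 gene was lower with L1d and 4 with L7d, among them Plpp5, 1.5-fold and 1.64-fold lower (0.0244 and 0.0056). Pla1a of this list had 2.43 and 2.1 CPM in DN1 and 0.225 and 0.31 CPM in DN2 with L7d. With L1d it had 1.26 and 2.07 CPM in DN1 and 1.17 and 1.11 CPM in DN2. In the Wnt list 6 of 10 were higher with either construct, Axin2 by 3.03-fold with L1d (5.52e-05) and by 3.71-fold with L7d (2.26e-06). These counts stand beside calls for 39.8% and 41.3% of all genes.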

How the data were processed

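RNA was measured in 59 mouse libraries made with a SMARTer Pico stranded kit for total RNA, per the labels' protocols. Per the submitters' processing notes, STAR 2.5.0a, HTSeq 0.6.1 and GRCm38 were used. The deposited values are the authors' read counts per gene, raw whole numbers without normalization. The annotation release is not given in the sources used here, so positions and symbols came from GENCODE M21 (45143 of 45706 genes matched). Reverse-strand counts were used, since the forward strand held 4.88% to 8.56% of stranded reads. Reads not assigned to a gene (unmapped, multimapping, ambiguous or without a feature, per the file rows) made up 56.1% to 73.9% and were left out. Labels carry B and T numbers of unstated meaning, and libraries with the same B number were summed.

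Counts of 16 primary replicates and, apart, 14 line libraries went into edgeR 4.0.16 under R 4.3.3 (filterByExpr, TMM, quasi-likelihood test, Benjamini-Hochberg adjustment over all genes tested, threshold 0.05), which left 15010 and 10939 genes. Scaling factors were 0.888 to 1.14 in primary cells, and replicates of a group correlated at 0.978 to 0.992. The procedure was tested on simulated data. Likeness is Pearson's r of log2 CPM with a prior count of 2, and the 3 nearest genes of each member are named. DESeq2 1.42.0 and the other alternatives are given in the closing section. The members and lists were chosen with earlier results of these data known.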

Additional observations from a re-analysis of the deposited data

Results flagged for a closer look

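Podxl in 1 library, DN1 HMGd replicate 2 library 1, stood at 5.63 CPM (27 reads), apart from the other 4 libraries of its group at 1.34 to 1.98 CPM. It was picked out because its gap to the next library was too large a share of the group's range for Dixon's 95% limit. Of 32 sets of libraries looked at (4 genes in 8 groups) it was the 1 found, and chance picks out about 1 in 20. The HMGd replicates of Podxl, summed over libraries, stood at 1.56 and 3.68 CPM.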

How the results depend on the processing

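Leaving out the filter on low counts gave 219 called genes for L1d against L7d in DN1 (9 in the reported fit), 447 for L7d against P45 in DN2 (44), 1543 for L1d against L7d in DN2 (873) and 618 for the interaction (39). Each library as its own replicate gave 717, 888, 2357 and 899 in the same order, 3543 for L1d against P45 in DN2 (1630) and 2832 for P45 against EV in DN1 (1120). DESeq2 gave 53 for L1d against L7d in DN1, 120 for L7d against P45 and 146 for the interaction, and its size factors within edgeR gave 5 and 22 for the first and last of these. Members called became 2 for L1d against L7d in DN1, L7d against P45 in DN2 and L1d against L7d in DN2 with no filter and with each library apart, and also 2 in the last with unstranded counts and 0 with DESeq2. The cause was not tested.

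The replicate block, in a design where the labels do not say what a number shares (same-numbered deviations correlated above 0.1 in 11 of 28 pairs of groups, range -0.03 to 0.26, and at 0.18, 0.24 and 0.26 among the DN2 groups), gave 24, 176 and 95 called genes for L1d against L7d in DN1, L7d against P45 and the interaction, and 2 members called in L1d against L7d of either stage and in L7d against P45. There the adjusted p of Fgf3 was 0.0391 and that of Podxl 0.0217 for L1d against L7d in DN1, and they were 0.0398 and 0.0087 for L7d against P45 in DN2, while Podxl had 0.0108 for L1d against L7d in DN2.

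Leaving out 1 replicate gave 1 to 2 called genes for L1d against L7d in DN1, 0 to 73 for L7d against P45, 527 to 1958 for L1d against P45, 184 to 1137 for L1d against L7d in DN2, 9 to 333 for the interaction, 495 to 673 for P45 against EV, 4104 to 5501 for the L1d stage comparison and 4742 to 5229 for the L7d one. Members called ranged from 0 to 2 for L1d against L7d in DN2 and from 2 to 4 for the L7d stage comparison, and stayed at 4 for the L1d one and at 0 for the others. No member's called direction was reversed under any alternative run. Members of the line were not tested in the reported fit and gave 0 calls with no filter.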

Other observations

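Podxl was also covered on the opposite strand, where GENCODE M21 annotates no overlapping gene. In the line, where 10 reads lay on the gene's strand, 168 lay on the other, 94.4% of the stranded reads of Podxl, and at least 1 was present in each of 14 libraries. Per group of the line these opposite-strand reads came to 1.34 to 2.42 per 1 M reads in genes, against 1.34 to 2.76 in DN2 groups and 0.509 to 1.43 in DN1 groups, lowest with EV. In primary cells they were 440 of the stranded reads of Podxl beside 7811 on its own strand, or 5.33%, while the share was 0.927% for Enpp2, 0.676% for Fgf3 and 1.79% for Tek. No test was made of these reads.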
